A study of Mus musculus with 103 samples.

Results

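Mouse macrophages given Kdo2-lipid A (KLA) for 12 h were compared directly with macrophages given KLA for 6 h, by poly(A) RNA sequencing with 1 library at each time. The cells were thioglycollate-elicited peritoneal macrophages of male C57Bl/6 mice aged 6 to 8 weeks, washed out of the peritoneum 3 to 4 days after an injection of 2.5 ml thioglycollate. After a night in 0.5% serum they received KLA at 100 ng/ml. No genetic change or other agent is named for these libraries, all had been through the same elicitation and starvation, and the sources used here do not say how many mice a library holds. Beside these libraries, 4 others of the same cells are given as context: KLA for 1 h, KLA for 24 h, an untreated control for 1 to 12 h and a separate untreated control for 24 h. The deposited table holds 33022 transcripts with 24014 gene symbols as RPKM, reads scaled by transcript length and by the reads of the library. One transcript was kept per symbol, and the 10383 genes with an RPKM of at least 1 in 2 of the 6 libraries and a transcript of at least 200 bases were tested. A gene was called higher or lower where RPKM + 1 differed at least 2-fold, and genes are ranked by the log2 ratio of RPKM + 1, while the folds printed are plain RPKM ratios. With 1 library a side there is no replicate error, so no p-value is given. The intervals beside folds are 95% exact intervals on the recovered reads, and they cover counting error alone.

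KLA is the lipid anchor of the lipopolysaccharide in bacterial outer membranes, and it acts on cells through the receptor TLR4. TLR4 activates NF-κB and AP-1 factors within minutes, which switch on cytokine, chemokine and feedback inhibitor genes. Its second arm makes interferon-β, which acts back on the cell through its own receptor to raise antiviral genes. Interferon-γ acts through a different receptor and is known for raising guanylate-binding proteins and antigen presentation. Later programmes of the TLR4 response include acute-phase and opsonin-type proteins, antioxidant genes and a changed glucose and lipid metabolism.

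The 12 h library had 460 of the 10383 genes (4.43%) at a level at least 2-fold higher than the 6 h library and 248 (2.39%) at a level at least 2-fold lower. The interval of the ratio excluded 1 for 391 of the higher genes (3.77% of all genes) and for 212 of the lower ones (2.04%). As background, the untreated 24 h library had 108 genes at least 2-fold higher than the untreated control for 1 to 12 h (1.04%) and 203 lower (1.96%). Over all genes the log2 ratio had a median of 0.11 and quartiles of −0.20 and 0.43, so medians of gene lists are given below relative to that value. Intervals are set against 1 without taking out that shift, so counts of intervals above 1 in a list include it. The share of all genes with an interval above or below 1, whatever their fold, was not counted for comparison. An abundant RNA can exclude 1 at a small ratio, so such counts do not show that a list differs from all genes. Counts of called genes in lists are to be read beside the shares of all genes, 4.43% higher and 2.39% lower. When the libraries were rescaled by the median of ratios, the counts were 324 higher and 351 lower, so that 48.0% of called genes were higher in place of 65.0%. Just inside the threshold stood Snrnp35, at 17.2 RPKM at 12 h against 8.11 RPKM at 6 h, and Plek, at 313 RPKM at 12 h against 628 RPKM at 6 h. Just outside it stood Vamp4, at 11.3 RPKM at 12 h against 5.16 at 6 h, and Tmpo, at 7.80 RPKM at 12 h against 16.6 at 6 h.

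**Figure D1:**
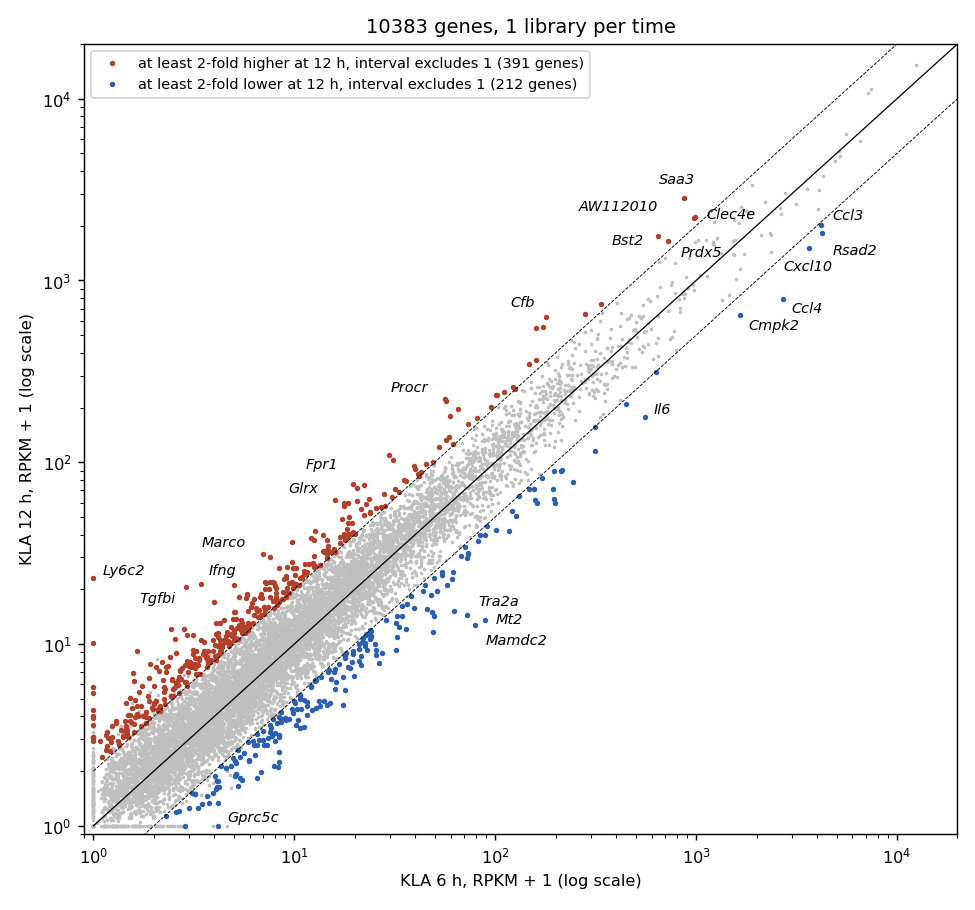
RPKM + 1 of 10383 genes at KLA 12 h (vertical, log scale) against KLA 6 h (horizontal, log scale), 1 library each; the solid line marks equal values and the dashed lines 2-fold differences. Red points are the 391 genes higher at 12 h beyond counting error and blue points the 212 lower, and the abundant RNAs Rsad2, Ccl3, Cxcl10, Ccl4 and Cmpk2 lie below the lower dashed line.

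The 6 libraries held 2205187 to 2674826 reads, with 2447142 at 12 h and 2372816 at 6 h, so that 3 reads in a transcript of 1 kb were worth 1.23 RPKM at 12 h and 1.26 RPKM at 6 h. Of the macrophage markers, Lyz2, the gene of lysozyme, was abundant in both, at 5167 RPKM at 12 h and 5118 at 6 h. The lysosomal glycoprotein gene Cd68 had 1649 RPKM at 12 h and 1529.5 at 6 h. The macrophage marker Itgam was not level, at 24.8 RPKM at 12 h against 43.1 at 6 h, 1.74-fold (1.50 to 2.02) lower. The ratio ran with transcript length. Its median log2 value was 0.29 over the shortest 2597 genes (220 to 1658 bases) and −0.07 over the longest 2596 (4029 to 19826 bases), and the untreated pair ran the other way, at −0.25 and 0.28. Genes called higher at 12 h had a median length of 1663.5 bases, genes called lower 2894 and all genes 2651. Set against genes of like length, 266 genes stood at least 2-fold above the 6 h library and 366 below it (42.1% higher), of which 257 and 235 were also called without that step. The part of length in any list below was not tested further, and list medians are given with their value relative to genes of like length.

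**Figure D2:**
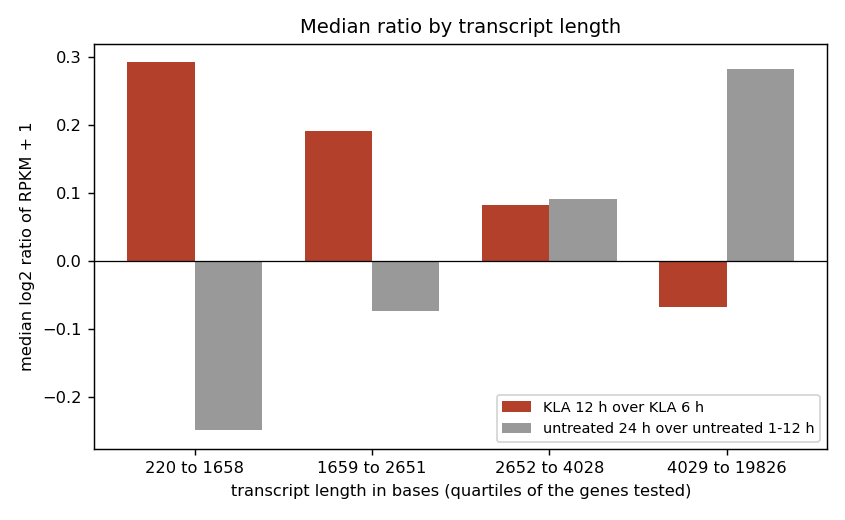
Median log2 ratio of RPKM + 1 (vertical) in 4 groups of genes by transcript length (horizontal, bases), for KLA 12 h over KLA 6 h (red) and untreated 24 h over untreated 1 to 12 h (grey); bars start at 0. The red bars step down from 0.29 to −0.07 with length and the grey bars step up from −0.25 to 0.28.

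Markers of lymphocytes, natural killer cells, mast cells, eosinophils and dendritic cells stood low, while S100a8 and some fibroblast genes did not. Summed over the 10 neutrophil markers in the table, RPKM was 86.9 at 12 h and 64.3 at 6 h, of which S100a8 alone held 75.2 and 51.7, and 6 of the 10, Mpo and S100a9 among them, had no read in either library. The 11 lymphocyte and natural killer cell markers summed to 7.41 RPKM at 12 h and 7.97 at 6 h, the 9 mast cell and eosinophil markers to 0.406 and 1.60, the 9 dendritic cell markers to 14.5 and 12.5, and the 11 fibroblast and mesothelial markers to 104 and 110.0. The fibroblast and mesothelial list had a median ratio of −0.40 relative to all genes (−0.42 relative to genes of like length), with no gene called, and −0.14 over members with at least 5 RPKM in either library. Its most abundant member, Dcn, had 52.2 RPKM at 12 h against 51.9 at 6 h. Col1a2 had 19.55 RPKM at 12 h against 19.0 at 6 h, and Col1a1 16.1 RPKM at 12 h against 13.4 at 6 h. In bulk RNA, fewer cells of a type and less RNA per cell cannot be told apart.

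Cytokine RNAs had the lowest median ratio of the lists. Of 24 inflammatory cytokine genes tested, 10 were at least 2-fold lower at 12 h and none was higher, and 9 of the 10 lay beyond counting error. The list median was −0.73 relative to all genes (−0.83 relative to genes of like length), and −0.02 in the untreated pair. Il6, the gene of interleukin-6 (chr5:30339701-30346508, mm9), stood at 0.418 RPKM in untreated cells, 10.4 after 1 h, 554 after 6 h, 175 after 12 h and 88.5 after 24 h of KLA, with 0.356 in the untreated 24 h library. It was highest at 6 h and 3.16-fold lower at 12 h (2.84 to 3.52). Il27, which encodes the p28 subunit of interleukin-27, stood at 0.644 RPKM in untreated cells, 5.92 after 1 h, 198 after 6 h, 58.6 after 12 h and 19.6 after 24 h of KLA, with 0 in the untreated 24 h library. The 6 h library was again the high one, and the RNA was 3.38-fold lower at 12 h (2.70 to 4.27). Tnfsf15, the gene of the TNF family ligand TL1A, had 0.0778 RPKM in untreated cells, 1.00 after 1 h, 61.1 after 6 h, 14.2 after 12 h and 4.56 after 24 h of KLA, with 0.332 in the untreated 24 h library. Its level at 6 h stood above every other library, and it was 4.29-fold lower at 12 h (3.68 to 5.03).

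Some members had few reads. Lif had 11 reads at 12 h, against 9 at 6 h, and Csf3 had 36 reads at 12 h, against 34 at 6 h, both within counting error. Csf2, the gene of GM-CSF, had 0.792 RPKM at 12 h, against 4.49 RPKM at 6 h, Il10 0.626 RPKM at 12 h against 3.23 at 6 h and Il33 1.13 RPKM at 12 h against 3.33 at 6 h. Csf2, Il10 and Il33 were each lower beyond counting error. Ifnb1, the gene of interferon-β, had no read at 12 h and 1.64 RPKM at 6 h, which is within counting error. The larger RNAs of Il15 (90.1 RPKM at 12 h against 215 at 6 h), which supports natural killer cells, and Il12b (30.8 RPKM at 12 h against 72.0 at 6 h), the p40 subunit shared by interleukins 12 and 23, were 2.38-fold (2.07 to 2.75) and 2.34-fold (1.92 to 2.86) lower. Edn1, the gene of the vasoconstrictor endothelin-1, had 76.9 RPKM at 12 h, against 244 RPKM at 6 h. The most abundant cytokine RNAs differed less. Il1b, interleukin-1β, had 2484 RPKM at 12 h, against 4048 RPKM at 6 h, a 1.63-fold (1.58 to 1.68) lower level, and Il1a had 1771 RPKM at 12 h, against 2366 RPKM at 6 h, or 1.34-fold (1.30 to 1.37) lower. Tnf was at 1159.9 RPKM at 12 h against 1648 at 6 h. At the other end stood Inhba, the gene of the activin A subunit, at 66.1 RPKM at 12 h against 40.0 at 6 h, Ebi3, the partner subunit of p28 in interleukin-27, at 26.5 RPKM at 12 h against 16.9 at 6 h, and Il1rn, the interleukin-1 receptor antagonist, at 1669.7 RPKM at 12 h against 1124 at 6 h. The partners of interleukin-27 thus stood on opposite sides, Il27 3.38-fold (2.70 to 4.27) lower and Ebi3 1.57-fold (1.08 to 2.31) higher.

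Among 23 chemokine genes, 5 were at least 2-fold lower and 1 was higher, with a list median of −0.36 (−0.42 relative to genes of like length). Ccl4, the gene of the chemokine MIP-1β (chr11:83476086-83478185, mm9), stood at 30.3 RPKM in untreated cells, 4036 after 1 h, 2701 after 6 h, 789 after 12 h and 284 after 24 h of KLA, with 14.7 in the untreated 24 h library. It was highest at 1 h and stepped down at each later time, and it was 3.42-fold lower at 12 h (3.21 to 3.65). Its neighbour Ccl3, the gene of MIP-1α, stood at 73.0 RPKM in untreated cells, 2236 after 1 h, 4203 after 6 h, 2012 after 12 h and 1156 after 24 h of KLA, with 73.0 in the untreated 24 h library. This RNA peaked at 6 h and was 2.09-fold lower at 12 h (2.01 to 2.17). Cxcl10, which draws CXCR3-bearing T cells, stood at 8.25 RPKM in untreated cells, 241 after 1 h, 3643 after 6 h, 1513 after 12 h and 1213 after 24 h of KLA, with 8.09 in the untreated 24 h library. It was 2.41-fold lower at 12 h (2.32 to 2.50). The CCR4 ligands Ccl17 and Ccl22 were lower too, at 5.58 RPKM at 12 h against 16.4 at 6 h and 41.5 RPKM at 12 h against 100.3 at 6 h. Cxcl9, another CXCR3 ligand, lay on the opposite side to Cxcl10. It had 45.3 RPKM at 12 h, against 18.3 RPKM at 6 h, with no read at 1 h, and was 2.48-fold higher at 12 h (2.01 to 3.07). Cxcl11, whose transcript in the table is a RefSeq non-coding record, had 16.8 RPKM at 12 h against 8.41 at 6 h, with a log2 ratio of 0.92, just under the threshold. Ccl5, the gene of RANTES and the most abundant chemokine RNA, was at 11289 RPKM at 12 h, against 7456 RPKM at 6 h and 1.51-fold higher at 12 h (1.48 to 1.55).

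NF-κB genes leaned the same way as the cytokines. Of 19 subunit and inhibitor genes, 3 passed the threshold, each lower at 12 h, and the median was −0.33 (−0.34 relative to genes of like length). In the untreated pair the list median was −0.22. Nfkbiz, the gene of the nuclear cofactor IκBζ, stood at 2.20 RPKM in untreated cells, 538 after 1 h, 59.9 after 6 h, 21.7 after 12 h and 28.9 after 24 h of KLA, with 2.09 in the untreated 24 h library. Its large value was at 1 h, and from there to 12 h each later level was lower. At 12 h it was 2.76-fold (2.33 to 3.29) below 6 h. Rel, the c-Rel subunit, was at 6.96 RPKM at 12 h against 18.3 at 6 h and Nfkb1, the p105 precursor of p50, at 43.5 RPKM at 12 h against 90.4 at 6 h, 2.08-fold (1.85 to 2.34) lower. Rela, the p65 subunit, had 54.3 RPKM at 12 h against 63.2 at 6 h, and Nfkb2 137 RPKM at 12 h against 162 at 6 h. Nfkbia, the gene of the inhibitor IκBα and the most abundant of the list, had 337 RPKM at 12 h against 440.1 at 6 h. Bcl3 and Traf1 were highest in the list by log2 ratio, at 24.1 RPKM at 12 h against 17.7 at 6 h and 98.1 RPKM at 12 h against 75.1 at 6 h.

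Of 28 immediate early and mRNA decay genes, 3 passed the threshold, each lower at 12 h, with a median of −0.37 (−0.39 relative to genes of like length). In the untreated pair the list median was −0.15. Egr1, a zinc finger factor of the first minutes of many responses, had 5 reads at 12 h, against 31 at 6 h. Its peak of 216 RPKM was at 1 h. Dusp2, a MAP kinase phosphatase, was at 6.32 RPKM at 12 h against 14.9 at 6 h, and Zfp36, the gene of tristetraprolin, which speeds the decay of Tnf and other AU-rich mRNAs, at 70.2 RPKM at 12 h against 147 at 6 h. Atf3 and Junb, the most abundant of the list, had 306 RPKM at 12 h against 307 at 6 h and 159 RPKM at 12 h against 189 at 6 h. Dusp4 had 9.26 RPKM at 12 h against 4.69 at 6 h, a log2 ratio of 0.85.

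**Figure D3:**
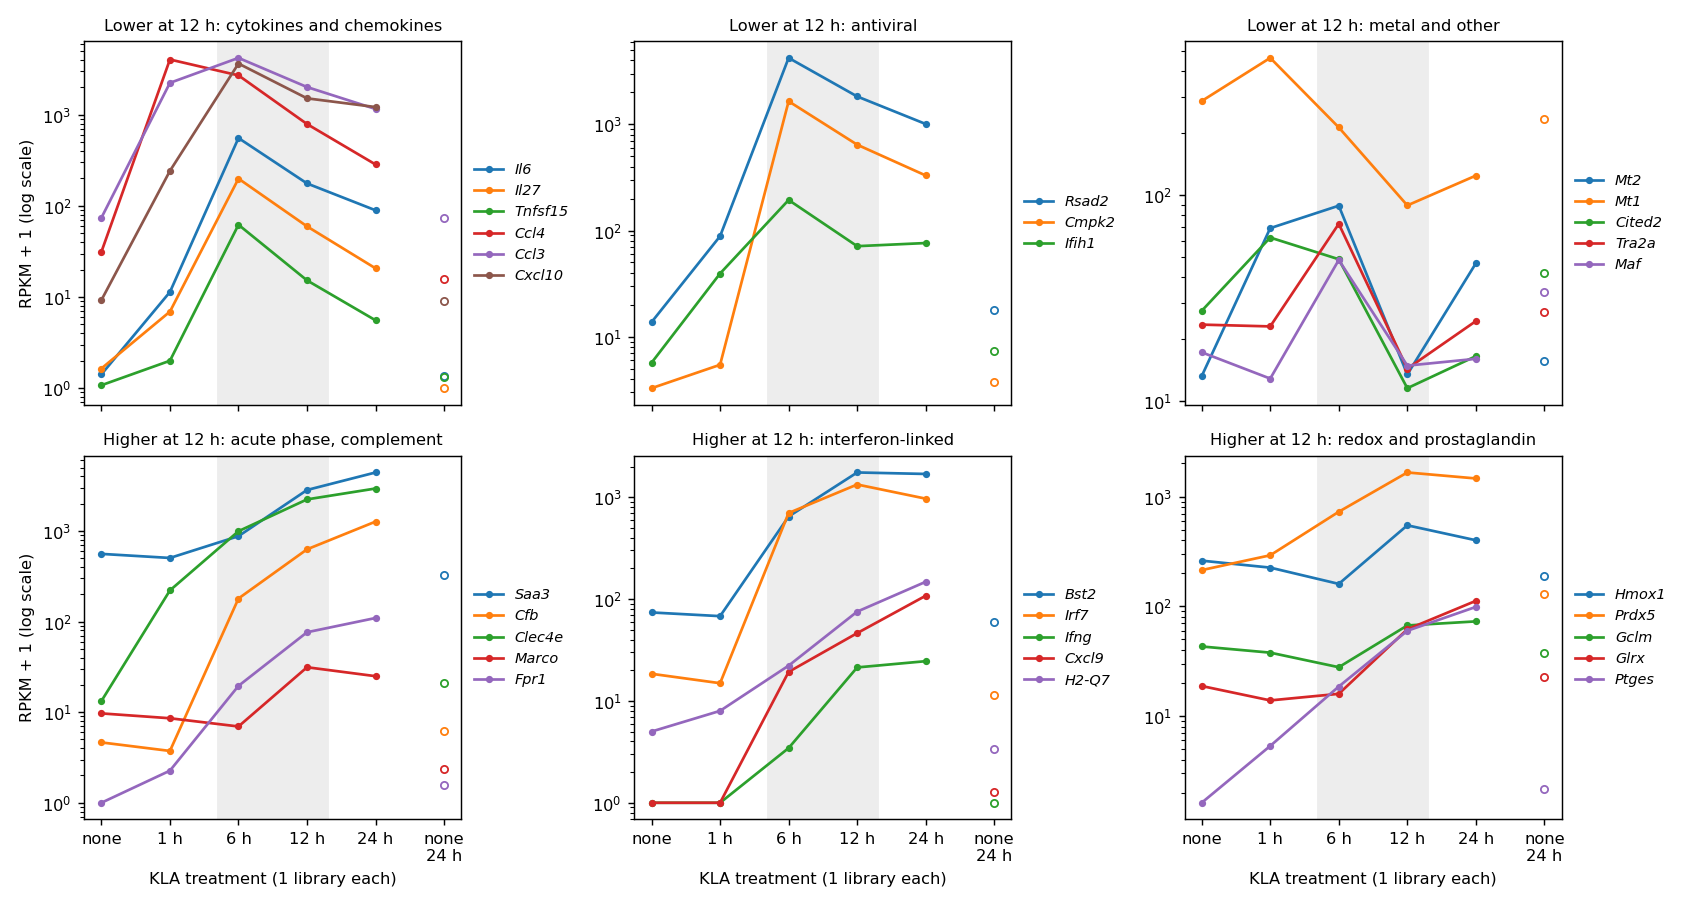
RPKM + 1 (vertical, log scale) of 29 genes in each of the 6 libraries; the filled points run over untreated cells and 1, 6, 12 and 24 h of KLA, the open point is the untreated 24 h library, and the grey band holds the 6 h and 12 h libraries. In the upper row every gene steps down from 6 h to 12 h, Il6 to 175 RPKM and Rsad2 to 1827 RPKM; in the lower row every gene steps up, Saa3 to 2824 RPKM and Hmox1 to 546 RPKM.

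The antiviral interferon-stimulated genes divided. Of 40 tested, 4 were at least 2-fold lower (10%) and 1 was higher (2.5%), with 27 below the median of all genes and 13 above it. The interval of the ratio lay below 1 for 22 and above 1 for 13. Intervals are narrow where reads are many, as for Oasl2, 1.11-fold (1.04 to 1.18) lower. The list median was −0.33 (−0.38 relative to genes of like length). Rsad2, the gene of viperin, an enzyme that makes a chain-terminating nucleotide (chr12:27127608-27141317, mm9), stood at 12.7 RPKM in untreated cells, 87.4 after 1 h, 4216 after 6 h, 1827 after 12 h and 1005 after 24 h of KLA, with 17.0 in the untreated 24 h library. The 6 h library was by far the highest, and the RNA was 2.31-fold lower at 12 h (2.27 to 2.35), the largest loss of RPKM among genes at least 2-fold lower. Cmpk2, its neighbour on chromosome 12 and a mitochondrial nucleotide kinase, stood at 2.28 RPKM in untreated cells, 4.44 after 1 h, 1646 after 6 h, 642 after 12 h and 329 after 24 h of KLA, with 2.79 in the untreated 24 h library. It was 2.57-fold lower at 12 h (2.48 to 2.65). Ifih1, the gene of the double-stranded RNA sensor MDA5, had 70.2 RPKM at 12 h against 193 at 6 h, 2.75-fold (2.55 to 2.96) lower, and Slfn5 had 88.4 RPKM at 12 h against 195 at 6 h. Ifit1, Ifit2 and Mx1 were lower by less than the threshold, at 827 RPKM at 12 h against 1458 at 6 h, 777 RPKM at 12 h against 1346 at 6 h and 218 RPKM at 12 h against 416 at 6 h.

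Other antiviral genes stood above their 6 h level. Bst2, the gene of tetherin, which holds budding virions on the cell surface, stood at 72.9 RPKM in untreated cells, 67.0 after 1 h, 646 after 6 h, 1749.9 after 12 h and 1692 after 24 h of KLA, with 58.1 in the untreated 24 h library. Its highest value was at 12 h, and it was 2.71-fold higher at 12 h (2.53 to 2.90). Ifi44 had 80.1 RPKM at 12 h against 39.9 at 6 h, just under the threshold with a log2 ratio of 0.99, Isg20 343 RPKM at 12 h against 182 at 6 h and Ifitm3 2108 RPKM at 12 h against 1229 at 6 h. Isg15, the ubiquitin-like modifier, had 2380.4 RPKM at 12 h against 1808 at 6 h.

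Of 22 genes of interferon signalling, 2 passed the threshold, both lower at 12 h, with a median of −0.26 (−0.15 relative to genes of like length). The lower ones were Jak2, a kinase of the interferon-γ receptor, at 38.6 RPKM at 12 h against 87.5 at 6 h, and Stat5a at 7.93 RPKM at 12 h against 17.2 at 6 h. Irf7, the factor that amplifies type I interferon production, stood at 17.5 RPKM in untreated cells, 13.9 after 1 h, 699 after 6 h, 1333 after 12 h and 967 after 24 h of KLA, with 10.5 in the untreated 24 h library. It was highest at 12 h, 1.91-fold (1.82 to 1.99) above 6 h, and with a log2 ratio of 0.93 did not reach the threshold. Irf1 was at 399.8 RPKM at 12 h against 332 at 6 h and Ifngr2 at 143 RPKM at 12 h against 99.8 at 6 h.

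Ifng, the gene of interferon-γ, was among the 15 highest log2 ratios of the genes named by rule. It stood at 0 RPKM in untreated cells, 0 after 1 h, 2.45 after 6 h, 20.3 after 12 h and 23.6 after 24 h of KLA, with 0 in the untreated 24 h library. Its level at 12 h rested on 60 reads, against 7 at 6 h. It had no read in either untreated library or at 1 h, and was 8.31-fold higher at 12 h (3.80 to 21.6). Interferon-γ is made chiefly by natural killer and T cells. In the same libraries the natural killer cell gene Nkg7 had 1 read at 12 h and 1 at 6 h, Ncr1 2 and 0, and Klrb1c none at either time, while the T cell receptor chains Cd3d, Cd3e and Cd3g had 1, 0 and 0 reads at 12 h and 0, 1 and 0 at 6 h. Which cells held the Ifng RNA was not tested.

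Among 14 guanylate-binding and immunity-related GTPase genes, which act on the vacuoles of intracellular pathogens, 2 were at least 2-fold higher and none lower, with a median of 0.16 (0.11 relative to genes of like length). The list median was larger in the untreated pair, at 0.32. Tgtp1 had 36 reads at 12 h, against 4 at 6 h, and 31.6 RPKM at 24 h, and Gbp4 had 32.0 RPKM at 12 h against 14.7 at 6 h. Tgtp1 has a near-identical neighbour, Tgtp2 (32.7 RPKM at 12 h against 22.0 at 6 h), and reads can be split between them. Gbp2, the most abundant, had 1578 RPKM at 12 h against 1208 at 6 h, Irgm1 525 RPKM at 12 h against 503 at 6 h and Gbp5 333 RPKM at 12 h against 480.1 at 6 h.

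Promoters of some antiviral, chemokine and GTPase genes called lower or higher at 12 h are shown. They were picked because the letters of an interferon-stimulated response element occur in each. The letters searched were GAAANNGAA on either strand in the 250 bases before and 50 after each RefSeq gene start (GRCm38.p6, 1 promoter per gene). Of the 10383 genes, 8362 had a promoter. The letters were found for 23 of 164 genes lower at 12 h beyond counting error (14.0%), 23 of 314 higher (7.32%) and 639 of all 8362 (7.64%), and in 8.57% of all 27025 RefSeq promoters. They were in 18 of 30 antiviral promoters and 9 of 9 of the GTPase list. They were also in 3 of 20 of the interferon signalling list and 11 of 57 of the cytosolic ribosomal protein genes. The 250 bases before the start are printed 5′ to 3′ on the gene's strand, in lower case, with each match in capitals. Cxcl10 (chr5:92348890-92349139), Rsad2 (chr12:26456453-26456702) and Ccl3 (chr11:83649379-83649628) were lower at 12 h, Bst2 (chr8:71537473-71537722) and Tgtp1 (chr11:48992247-48992496) higher, and all lie on the minus strand.
Cxcl10: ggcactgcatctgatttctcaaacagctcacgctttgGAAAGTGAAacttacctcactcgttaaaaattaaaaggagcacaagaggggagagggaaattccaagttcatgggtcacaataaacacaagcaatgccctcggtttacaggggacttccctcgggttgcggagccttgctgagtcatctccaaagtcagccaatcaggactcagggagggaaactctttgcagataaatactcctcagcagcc
Rsad2: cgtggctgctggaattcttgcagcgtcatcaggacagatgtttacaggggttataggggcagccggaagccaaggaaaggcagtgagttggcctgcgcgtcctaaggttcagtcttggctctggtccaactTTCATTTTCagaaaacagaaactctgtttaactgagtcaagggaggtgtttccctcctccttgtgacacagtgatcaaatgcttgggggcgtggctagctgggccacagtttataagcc
Ccl3: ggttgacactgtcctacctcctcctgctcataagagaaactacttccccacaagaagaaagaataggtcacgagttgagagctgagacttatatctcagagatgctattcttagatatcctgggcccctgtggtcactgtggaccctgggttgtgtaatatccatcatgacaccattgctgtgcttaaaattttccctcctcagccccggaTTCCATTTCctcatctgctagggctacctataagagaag
Bst2: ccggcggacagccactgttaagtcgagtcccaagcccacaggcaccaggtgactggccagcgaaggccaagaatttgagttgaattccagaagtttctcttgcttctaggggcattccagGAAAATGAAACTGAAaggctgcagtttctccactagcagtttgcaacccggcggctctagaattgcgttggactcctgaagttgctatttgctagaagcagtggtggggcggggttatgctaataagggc
Tgtp1: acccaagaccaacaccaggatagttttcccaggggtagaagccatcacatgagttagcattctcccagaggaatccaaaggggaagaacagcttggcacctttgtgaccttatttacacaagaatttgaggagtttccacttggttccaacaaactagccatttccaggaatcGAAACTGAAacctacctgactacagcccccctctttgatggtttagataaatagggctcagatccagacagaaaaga
The match begins 213 bases before the start in Cxcl10, 119 in Rsad2, 39 in Ccl3 and 77 in Tgtp1. Bst2 has 2 overlapping matches, which begin 130 and 124 bases before the start. A match is a stretch of letters and was not tested as a binding site.

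The other letters were searched in the same way on either strand. The NF-κB letters GGNNTTTCC were in 8.54% of the promoters of genes lower at 12 h, 6.69% of those higher and 6.21% of all tested, with 5.72% of all RefSeq promoters. By list they were in 8 of 16 promoters of NF-κB genes, 6 of 15 of chemokines and 5 of 18 of cytokines. The AP-1 letters TGANTCA were in 6.10%, 8.28% and 5.19%, with 7.93% of all RefSeq promoters. The cyclic AMP response letters TGACGTCA were in 3.66%, 2.55% and 3.43% (1.88%), and the sterol response letters TCACNCCAC in 1 of 164, 2 of 314 and 81 of 8362 promoters (1.22%). By list the sterol letters were in 0 of 19 promoters of the cholesterol list and 0 of 18 of the fatty acid list. The search thus marked no gene of either list, and its shares do not show which genes SREBP binds.

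Genes of MHC class I antigen processing lay above the median of all genes in 18 of 20 cases, although only 1 reached the threshold. Their median was 0.48 (0.35 relative to genes of like length), against −0.53 in the untreated pair. The interval of the ratio lay above 1 for 18 genes and below 1 for 1. B2m, β2-microglobulin, the shared light chain of class I molecules, had 10733 RPKM at 12 h, against 7182 RPKM at 6 h, 1.49-fold (1.46 to 1.53) higher, and H2-D1, a heavy chain, 2073 RPKM at 12 h against 1632 at 6 h. H2-Q7, a non-classical heavy chain with close copies among the other H2-Q genes, stood at 4.00 RPKM in untreated cells, 6.99 after 1 h, 21.2 after 6 h, 74.3 after 12 h and 147 after 24 h of KLA, with 2.39 in the untreated 24 h library. It stepped up at each time from 1 h, and was 3.50-fold higher at 12 h (2.60 to 4.79). The immunoproteasome subunits Psmb8 and Psmb10 and the activator subunit Psme1 were at 665 RPKM at 12 h against 338 at 6 h, 519.7 RPKM at 12 h against 277 at 6 h and 355 RPKM at 12 h against 180.1 at 6 h. Nlrc5, the transactivator of class I genes, was the lowest of the list by log2 ratio, at 23.3 RPKM at 12 h against 32.5 at 6 h, and the peptide transporter Tap1 had 235 RPKM at 12 h against 220.4 at 6 h, within counting error.

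The 13 genes of MHC class II and costimulation gave no common direction, with a median of 0.04 (−0.14 relative to genes of like length), 1 gene lower and none higher. The lower one was Cd80, a ligand of CD28, at 2.89 RPKM at 12 h against 8.43 at 6 h. Cd274, the gene of PD-L1, was at 483 RPKM at 12 h against 646 at 6 h, while Cd74, the invariant chain, was at 589 RPKM at 12 h against 501 at 6 h and H2-Ab1 at 222 RPKM at 12 h against 165 at 6 h.

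Constitutive proteasome subunits lay above the median of all genes almost without exception. Of 34 genes, 33 lay above it, 4 were at least 2-fold higher and none was lower. With the shift of all genes left in, the interval of the ratio lay above 1 for 32 and below 1 for none. The median was 0.53 (0.41 relative to genes of like length), against −0.35 in the untreated pair. Psma7, an α subunit of the core particle, stood at 130.2 RPKM in untreated cells, 110 after 1 h, 100.2 after 6 h, 233 after 12 h and 266 after 24 h of KLA, with 88.6 in the untreated 24 h library. The 12 h and 24 h libraries were the high ones, and it was 2.33-fold higher at 12 h (1.99 to 2.73). Psmb5, which holds the chymotrypsin-like site, had 77.5 RPKM at 12 h against 34.9 at 6 h, and Psma5 and Psmb7 67.9 RPKM at 12 h against 32.2 at 6 h and 125 RPKM at 12 h against 60.5 at 6 h. Psmd6, a subunit of the regulatory cap, was the one below the median, at 56.2 RPKM at 12 h against 65.4 at 6 h.

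The acute-phase, complement and antimicrobial list had the largest share of higher genes among the 32 lists. Of 21 genes, 9 passed the threshold above 6 h and 1 below it, all 10 beyond counting error, with a median of 0.55 (0.45 relative to genes of like length). Saa3, the gene of serum amyloid A3, the form made by macrophages, stood at 556 RPKM in untreated cells, 502 after 1 h, 873 after 6 h, 2824 after 12 h and 4409 after 24 h of KLA, with 325 in the untreated 24 h library. The 12 h and 24 h libraries stood above all earlier ones, and it was 3.23-fold higher at 12 h (3.02 to 3.46), the largest gain of RPKM among genes at least 2-fold higher. Cfb, complement factor B, the protease of the alternative pathway (chr17:34993319-34999459, mm9), stood at 3.63 RPKM in untreated cells, 2.73 after 1 h, 178 after 6 h, 625 after 12 h and 1265 after 24 h of KLA, with 5.21 in the untreated 24 h library. It was 3.50-fold higher at 12 h (3.28 to 3.74). Clec4e, the gene of Mincle, a lectin that binds mycobacterial glycolipids, stood at 12.2 RPKM in untreated cells, 219 after 1 h, 990.5 after 6 h, 2224 after 12 h and 2932 after 24 h of KLA, with 20.1 in the untreated 24 h library. It was 2.25-fold higher at 12 h (2.18 to 2.31).

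Marco, a scavenger receptor for bacteria, stood at 8.69 RPKM in untreated cells, 7.56 after 1 h, 5.95 after 6 h, 30.3 after 12 h and 23.9 after 24 h of KLA, with 1.36 in the untreated 24 h library. Unlike Cfb and Clec4e it was not above the untreated control at 6 h, and it was 5.09-fold higher at 12 h (3.38 to 7.92). The formyl peptide receptor genes Fpr1 and Fpr2, close relatives, had 75.1 RPKM at 12 h against 18.5 at 6 h and 216 RPKM at 12 h against 55.6 at 6 h. Hp, haptoglobin, and Lcn2, lipocalin-2, which binds bacterial siderophores, had 19.5 RPKM at 12 h against 8.15 at 6 h and 51.3 RPKM at 12 h against 22.8 at 6 h. Camp, the cathelicidin of neutrophil granules, had 7 reads at 12 h, against 0 at 6 h, while the granule genes Mpo and Elane had none at either time. Its ratio, set against a floor of 3 reads at 6 h, was at least 2.26-fold higher. Of the other neutrophil markers, S100a8 had 75.2 RPKM at 12 h and 51.7 at 6 h and Mmp8 had 6.83 and 12.4, and their part in this list was not tested. Among the C1q chains, C1qb was at 287 RPKM at 12 h against 285 at 6 h and C1qa at 69.9 RPKM at 12 h against 92.0 at 6 h.

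Antioxidant and metal-binding genes lay at both ends. Of 21, 4 were at least 2-fold higher and 2 lower, with a median of 0.28 (0.08 relative to genes of like length). Hmox1, haem oxygenase 1, stood at 259 RPKM in untreated cells, 224 after 1 h, 159 after 6 h, 546 after 12 h and 399 after 24 h of KLA, with 186 in the untreated 24 h library. It was below both untreated libraries at 6 h and above all libraries at 12 h, 3.43-fold (3.13 to 3.77) higher. Prdx5, peroxiredoxin 5, stood at 213 RPKM in untreated cells, 291 after 1 h, 725 after 6 h, 1655 after 12 h and 1459.5 after 24 h of KLA, with 128 in the untreated 24 h library. It was 2.28-fold higher at 12 h (2.13 to 2.45). Gclm, a subunit of the enzyme that starts glutathione synthesis, had 65.9 RPKM at 12 h against 26.9 at 6 h and catalase, Cat, 39.1 RPKM at 12 h against 17.5 at 6 h. Prdx1, the most abundant, had 3371 RPKM at 12 h against 1902 at 6 h, 1.77-fold (1.72 to 1.83) higher. The metallothionein genes, which bind zinc and copper and are raised by metals and glucocorticoids, went the other way. Mt2 stood at 12.3 RPKM in untreated cells, 68.3 after 1 h, 88.1 after 6 h, 12.5 after 12 h and 45.8 after 24 h of KLA, with 14.6 in the untreated 24 h library. Its value at 12 h was near the untreated level, 7.04-fold (4.21 to 12.5) below 6 h, the lowest log2 ratio of RPKM + 1 among genes named. Mt1 stood at 286 RPKM in untreated cells, 464 after 1 h, 213 after 6 h, 88.4 after 12 h and 124 after 24 h of KLA, with 234 in the untreated 24 h library, 2.41-fold lower at 12 h (1.93 to 3.01).

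Of 19 genes of the ER stress and amino acid response, 3 were at least 2-fold higher, 2 of them beyond counting error, and none was lower. The median was 0.37 (0.18 relative to genes of like length), and it was 0.04 over the members with at least 5 RPKM in either library. Ddit3, the gene of CHOP, stood at 33.1 RPKM in untreated cells, 16.7 after 1 h, 8.72 after 6 h, 35.3 after 12 h and 55.9 after 24 h of KLA, with 16.9 in the untreated 24 h library. Its lowest value was at 6 h, and it was 4.05-fold higher at 12 h (2.36 to 7.34). Atf4, its upstream factor, had 203 RPKM at 12 h against 111 at 6 h, and Trib3 2.99 RPKM at 12 h against 0.822 at 6 h. Chac1 had 5 reads at 12 h and none at 6 h, within counting error. Hspa5, the chaperone BiP and the most abundant of the list, had 287 RPKM at 12 h against 279.9 at 6 h, and Psat1 was the lowest by log2 ratio at 9.98 RPKM at 12 h against 15.5 at 6 h.

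Glycolytic and HIF-linked genes lay above the median in 19 of 24 cases, with 4 of 24 at least 2-fold higher, none lower, and a median of 0.33 (0.29 relative to genes of like length). Pfkl, the liver form of phosphofructokinase, stood at 11.2 RPKM in untreated cells, 8.30 after 1 h, 4.76 after 6 h, 16.8 after 12 h and 33.1 after 24 h of KLA, with 10.4 in the untreated 24 h library. It was 3.53-fold higher at 12 h (2.50 to 5.10). The platelet form, Pfkp, was the lowest of the list by log2 ratio, at 23.1 RPKM at 12 h against 39.3 at 6 h, 1.70-fold (1.44 to 2.01) lower, and Pfkm, the muscle form, had 11 reads at 12 h and 1 at 6 h. Tpi1, triosephosphate isomerase, had 87.6 RPKM at 12 h against 41.9 at 6 h, and Pgam1 3.35 RPKM at 12 h against 1.15 at 6 h. Glycolytic genes have many processed copies in the mouse genome, so their levels are uncertain. Hk3 had 349 RPKM at 12 h against 245 at 6 h and Slc2a6 307 RPKM at 12 h against 354 at 6 h. Hif1a itself had 61.4 RPKM at 12 h against 70.5 at 6 h. In the citric acid cycle list 1 of 20 genes was higher and none lower, with a median of 0.14 (0.07 relative to genes of like length). The higher one was Idh1, the cytosolic isocitrate dehydrogenase, at 28.9 RPKM at 12 h against 13.6 at 6 h, far below its untreated level of 156 RPKM. Irg1, which makes itaconate, was lowest by log2 ratio at 1828 RPKM at 12 h against 2323 at 6 h. In the nitric oxide and arginine list no gene of 12 reached the threshold. Nos2 had 72.0 RPKM at 12 h against 63.5 at 6 h, and the list median was −0.01 (−0.01 relative to genes of like length).

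**Figure D4:**
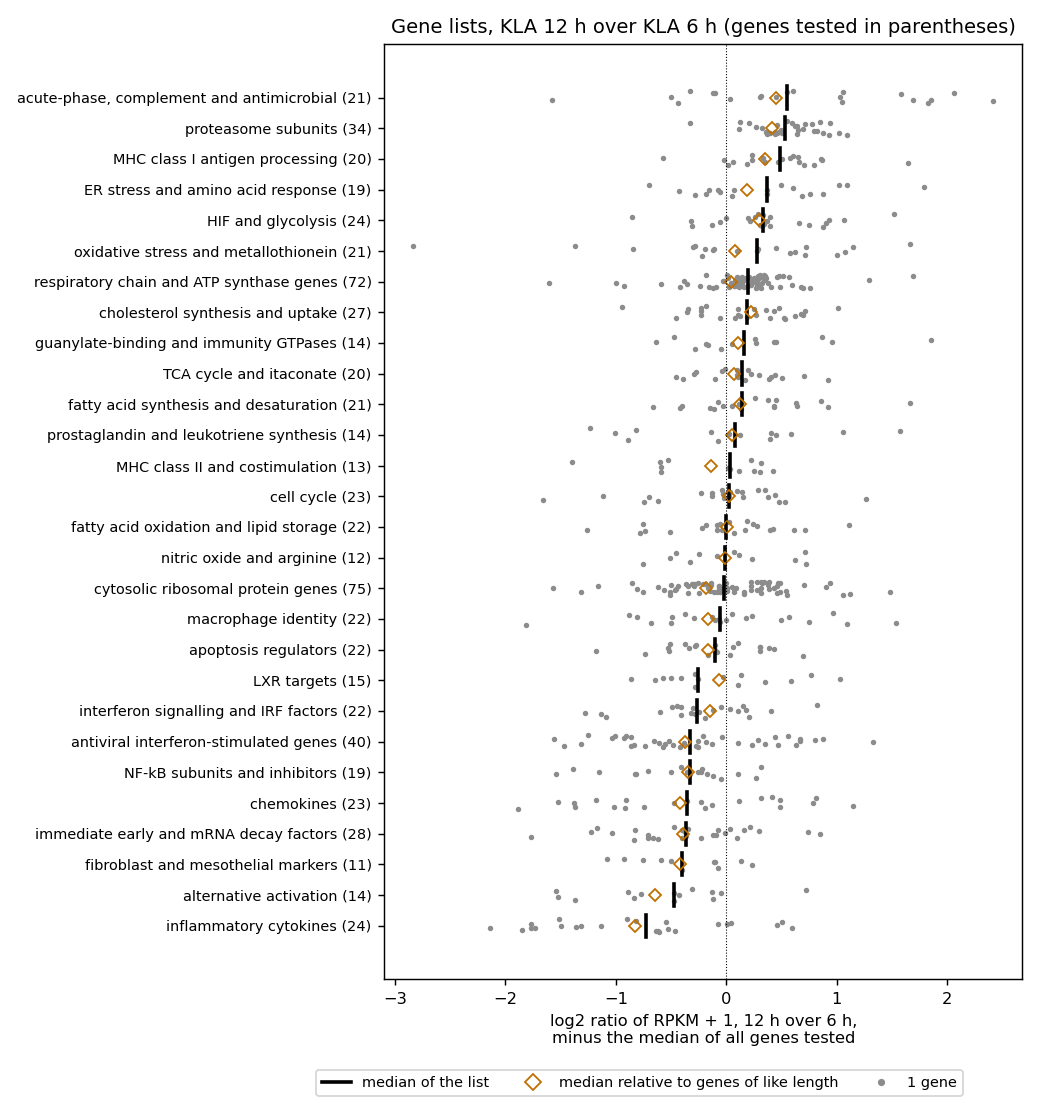
Log2 ratio of RPKM + 1, KLA 12 h over KLA 6 h, minus the median of all genes (horizontal), for the members (grey points) of 28 gene lists with at least 10 genes tested (vertical); black bars are list medians and diamonds the medians relative to genes of like length. Acute-phase genes (0.55), proteasome subunits (0.53) and class I genes (0.48) lie at the top and inflammatory cytokines (−0.73) at the bottom.

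Lipid metabolism is the subject of the series. Of 27 genes of cholesterol synthesis and uptake, 1 was at least 2-fold higher and none lower, with a median of 0.19 (0.22 relative to genes of like length) and 0.23 in the untreated pair. The interval of the ratio lay above 1 for 13 and below 1 for 2. Mvk, mevalonate kinase, had 15.0 RPKM at 12 h against 6.35 at 6 h, 2.37-fold (1.46 to 3.93) higher, and Pmvk, the next enzyme, 19.6 RPKM at 12 h against 10.6 at 6 h. Scap, which escorts SREBP out of the endoplasmic reticulum, was one of the 2 below, at 3.85 RPKM at 12 h against 7.64 at 6 h. Srebf2 had 27.3 RPKM at 12 h against 29.7 at 6 h, within counting error, and Npc2, a lysosomal cholesterol carrier and the most abundant, 918 RPKM at 12 h against 663 at 6 h.

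Of 21 genes of fatty acid synthesis and desaturation, 2 were at least 2-fold higher and none lower, with a median of 0.14 (0.12 relative to genes of like length). The list median was larger in the untreated pair, at 0.22. Scd2, a stearoyl-CoA desaturase, stood at 24.8 RPKM in untreated cells, 16.4 after 1 h, 7.35 after 6 h, 16.0 after 12 h and 41.3 after 24 h of KLA, with 48.5 in the untreated 24 h library. It was lowest at 6 h and 2.18-fold higher at 12 h (1.71 to 2.81). Acss2, which makes acetyl-CoA from acetate, had 38 reads at 12 h, against 6 at 6 h, 6.14-fold (2.58 to 17.8) higher. Fads1, the Δ5 desaturase, had 9.81 RPKM at 12 h against 4.51 at 6 h, just under the threshold. Srebf1, the gene of the factor that drives this list, was the lowest of the 21 by log2 ratio of RPKM + 1, at 12.5 RPKM at 12 h, against 18.7 RPKM at 6 h, 1.50-fold (1.20 to 1.89) lower. Its level in the other libraries was 13.9 RPKM in untreated cells, 15.5 at 1 h and 10.6 at 24 h, with 8.90 in the untreated 24 h library.

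LXR target genes had a median of −0.26 (−0.07 relative to genes of like length), with 1 of 15 at least 2-fold higher and none lower. Apoe and Lpl, the most abundant, had 3173 RPKM at 12 h against 3576 at 6 h and 239 RPKM at 12 h against 347 at 6 h, Cd5l was lowest by log2 ratio at 27.9 RPKM at 12 h against 47.6 at 6 h, and the efflux pumps Abca1 and Abcg1 had 15.9 RPKM at 12 h against 13.2 at 6 h and 15.2 RPKM at 12 h against 17.0 at 6 h. Nr1h3, the gene of LXRα, was 1.65-fold higher at 12 h (1.30 to 2.10), at 44.0 RPKM at 12 h against 26.7 at 6 h. Of 22 genes of fatty acid oxidation and lipid storage, 1 was higher and 1 lower, with a median of −0.005 (0.01 relative to genes of like length). Ppard had 14.2 RPKM at 12 h against 5.50 at 6 h. Hadhb had 1 read at 12 h and 8 at 6 h. Cd36, the fatty acid and scavenger receptor, had 476 RPKM at 12 h against 743 at 6 h, and Lipa, the lysosomal lipase, 246 RPKM at 12 h against 323 at 6 h.

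Binding data for SREBP1 and LXR, from macrophages given GW3965, an agonist of LXR, were set beside these values. A peak centre lay within 1000 bases of the start for 42.5% of genes higher at 12 h beyond counting error (166 of 391), 34.4% of those lower (73 of 212) and 41.7% of all genes tested for SREBP1. In the cholesterol list 22 of 27 genes had such a peak and a median ratio of 0.16 relative to all genes, against 0.27 for the 5 without. In the fatty acid list the 14 with an SREBP1 peak had a median of 0.41 and the 7 without −0.08. LXR peaks divided the fatty acid list in a like way, with 0.43 for the 15 with a peak and −0.02 for the 6 without. Most genes of this list with a peak of one factor also had a peak of the other, so it is largely the same division. Acss2, the highest of the list by log2 ratio, had an LXR peak and no SREBP1 peak. In the cholesterol list the 18 with an LXR peak had 0.11 and the 9 without 0.40. An LXR peak centre lay near the start for 54.7% of genes higher, 48.1% of those lower and 52.9% of all tested. The 9 LXR targets with an LXR peak had a median of −0.29 and the 6 without −0.08. These are peaks of another treatment, and binding at 6 or 12 h was not analysed here.

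Macrophage identity genes lay on either side, while alternative activation genes lay mostly below the median of all genes. Of 22 macrophage identity genes, 3 were higher (13.6%) and 1 lower (4.5%), with a median of −0.06 (−0.16 relative to genes of like length). Cebpa, a lineage factor, stood at 78.6 RPKM in untreated cells, 27.5 after 1 h, 7.36 after 6 h, 25.3 after 12 h and 26.7 after 24 h of KLA, with 59.4 in the untreated 24 h library. Its lowest value was at 6 h, and it was 3.44-fold higher at 12 h (2.46 to 4.88). Fcgr1, the high-affinity IgG receptor, had 234 RPKM at 12 h against 101 at 6 h, and Cxcr4 6.99 RPKM at 12 h against 2.79 at 6 h. Maf, the gene of c-MAF, stood at 16.3 RPKM in untreated cells, 11.9 after 1 h, 47.6 after 6 h, 13.9 after 12 h and 15.1 after 24 h of KLA, with 33.0 in the untreated 24 h library. The 6 h library was the highest, and it was 3.42-fold lower at 12 h (2.79 to 4.21). Among 14 alternative activation genes, 3 were lower and none higher, with a median of −0.47 (−0.64 relative to genes of like length). They were Mrc1, the mannose receptor, at 11.4 RPKM at 12 h against 32.3 at 6 h, and Ccl17 and Ccl22, given above. Tgm2, the most abundant, had 143 RPKM at 12 h against 136 at 6 h.

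In prostaglandin and leukotriene synthesis 2 of 14 genes were higher and 1 lower. Ptges, the inducible prostaglandin E synthase, stood at 0.622 RPKM in untreated cells, 4.34 after 1 h, 17.6 after 6 h, 58.8 after 12 h and 97.7 after 24 h of KLA, with 1.17 in the untreated 24 h library. It stepped up at each time and was 3.35-fold higher at 12 h (2.79 to 4.04). Ptgs2, the cyclooxygenase that feeds it, went the other way by less than the threshold, at 215 RPKM at 12 h against 352 at 6 h, 1.63-fold (1.55 to 1.72) lower. Ptgir, the prostacyclin receptor, had 11.5 RPKM at 12 h against 4.55 at 6 h and Alox5ap, needed for leukotriene synthesis, 24.0 RPKM at 12 h against 53.4 at 6 h. In the cell cycle list Ccnd2, cyclin D2, had 14.7 RPKM at 12 h against 44.8 at 6 h, Cdkn1a, the inhibitor p21, 156 RPKM at 12 h against 314 at 6 h, and Mcm7 12 reads at 12 h and 1 at 6 h. Of the 22 apoptosis regulators only Xiap reached the threshold, at 8.99 RPKM at 12 h against 19.9 at 6 h. The list median was 0.07 for prostaglandin and leukotriene synthesis (0.05 relative to genes of like length), 0.02 for the cell cycle (0.02) and −0.11 for apoptosis (−0.17).

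Of 75 cytosolic ribosomal protein genes, 5 were higher (6.67%) and 3 lower (4%), against 4.43% and 2.39% of all genes. Of those called, 1 higher and 1 lower lay beyond counting error, and the list median was −0.02 (−0.18 relative to genes of like length). Many of the 75 genes have processed copies in the genome, so their levels are uncertain. Of 72 respiratory chain and ATP synthase genes, 2 were higher (2.78%) and 1 lower (1.39%), and 58 lay above the median of all genes. The interval of the ratio lay above 1 for 29 and below 1 for 1. The list median was 0.20, and 0.04 relative to genes of like length.

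Some of the highest log2 ratios belonged to no list. Ly6c2, the gene of the monocyte antigen Ly6C, stood at 0 RPKM in untreated cells, 0.521 after 1 h, 0 after 6 h, 22.0 after 12 h and 95.8 after 24 h of KLA, with 0 in the untreated 24 h library. It had 43 reads at 12 h and none at 6 h, at least 13.9-fold higher against a floor of 3 reads, and Ly6 genes have close copies. Tgfbi, an extracellular matrix protein gene named for its response to TGF-β, stood at 6.10 RPKM in untreated cells, 3.89 after 1 h, 1.89 after 6 h, 19.5 after 12 h and 79.5 after 24 h of KLA, with 4.48 in the untreated 24 h library. Its lowest value was at 6 h, and it was 10.3-fold higher at 12 h (5.72 to 20.5). Procr, the endothelial protein C receptor, stood at 34.1 RPKM in untreated cells, 28.0 after 1 h, 55.0 after 6 h, 222 after 12 h and 249 after 24 h of KLA, with 20.1 in the untreated 24 h library. It was 4.03-fold higher at 12 h (3.45 to 4.74). Tsc22d3, the gene of the glucocorticoid-induced leucine zipper GILZ, stood at 83.5 RPKM in untreated cells, 21.6 after 1 h, 2.99 after 6 h, 16.0 after 12 h and 24.5 after 24 h of KLA, with 97.2 in the untreated 24 h library. It was far below both untreated libraries at every time from 6 h, with its lowest value at 6 h, and was 5.33-fold higher at 12 h (2.99 to 10.2). Tmem86a, a lysoplasmalogenase gene, was likewise lowest at 6 h, with 20.1 RPKM at 12 h against 4.00 at 6 h. Siglece, an inhibitory sialic acid receptor, had 11.1 RPKM at 12 h against 1.82 at 6 h, while the untreated control for 1 to 12 h had none. Osbpl3, an oxysterol-binding protein relative, had 11.1 RPKM at 12 h against 1.43 at 6 h, 7.76-fold (4.97 to 12.7) higher. Glrx, glutaredoxin, had 60.7 RPKM at 12 h against 14.9 at 6 h. Abi3, Zdhhc12 and Nprl2, the last with 2 reads at 6 h, had 6.76 RPKM at 12 h against 0.915 at 6 h, 29.1 RPKM at 12 h against 6.59 at 6 h and 5.89 RPKM at 12 h against 0.579 at 6 h. AW112010 had 2209.5 RPKM at 12 h, against 977 RPKM at 6 h, the third largest gain in RPKM among genes at least 2-fold higher.

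Among the lowest log2 ratios outside the lists, Mamdc2 stood at 241 RPKM in untreated cells, 207 after 1 h, 78.3 after 6 h, 11.8 after 12 h and 4.15 after 24 h of KLA, with 263 in the untreated 24 h library. It was abundant in both untreated libraries and stepped down at each time of KLA, and was 6.66-fold lower at 12 h (5.36 to 8.35). Tra2a, a splicing regulator, stood at 22.6 RPKM in untreated cells, 22.1 after 1 h, 71.7 after 6 h, 13.4 after 12 h and 23.5 after 24 h of KLA, with 26.0 in the untreated 24 h library. The 6 h library stood apart from all the others, which lay between 13.4 and 26.0 RPKM, and it was 5.35-fold lower at 12 h (4.04 to 7.17). Cited2, a cofactor that competes with HIF-1α for CBP and p300, stood at 26.5 RPKM in untreated cells, 61.4 after 1 h, 48.0 after 6 h, 10.6 after 12 h and 15.6 after 24 h of KLA, with 41.0 in the untreated 24 h library. It was 4.53-fold lower at 12 h (3.33 to 6.27), with its lowest value at 12 h. Il1rap, the accessory chain of the interleukin-1 receptor, had 1.25 RPKM at 12 h against 7.37 at 6 h. Hamp, the gene of the iron hormone hepcidin, had 8 reads at 12 h, against 29 at 6 h and none at 1 h, 3.74-fold (1.67 to 9.46) lower. Gprc5c had no read at 12 h and 30 at 6 h, at least 10.3-fold lower against a floor of 3 reads. Rnd3 and Calcrl, the calcitonin receptor-like receptor, had 13.3 RPKM at 12 h against 48.6 at 6 h and 6.82 RPKM at 12 h against 25.4 at 6 h, and Tcf4 3.61 RPKM at 12 h against 16.5 at 6 h. Fam129a, Matk and Mmp27 had 1.14 RPKM at 12 h against 6.96 at 6 h, 1.11 RPKM at 12 h against 7.31 at 6 h and 0.988 RPKM at 12 h against 5.86 at 6 h.

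The levels of called genes in the other libraries were also read. Those libraries did not enter the ratio, but they helped set the filter and the transcript kept for each symbol. Genes at least 2-fold higher at 12 h had a median of 8.39 RPKM in untreated cells, 6.77 after 1 h, 3.08 after 6 h, 9.29 after 12 h and 9.18 after 24 h, with 6.98 in the untreated 24 h library. Genes lower at 12 h had medians of 5.19, 6.37, 10.4, 3.63 and 5.01 RPKM over the same times and 5.54 in the untreated 24 h library. The 6 h and 12 h values are those that chose the genes. Of the 391 genes higher beyond counting error, 114 (29.2%) were at least 2-fold above the untreated 24 h library after 24 h of KLA and 40 (10.2%) at least 2-fold below it, where all genes tested gave 9.62% and 10.3%. Of the 212 lower genes, 46 (21.7%) were above and 49 (23.1%) below. The higher genes made up 11.4% of the 999 genes above the control at 24 h and 3.73% of the 1072 below it, against 3.77% of all genes tested. The lower genes made up 4.60% of those above and 4.57% of those below, against 2.04% of all genes tested.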

How the data were processed

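Poly(A) RNA of thioglycollate-elicited macrophages was sequenced in 6 libraries, 1 per condition, and gene expression was deposited by the authors as RPKM on mouse build mm9. Bowtie 0.12.7, STAR and HOMER are named in the submitters' processing notes, with no role given. The sources used here do not state strand use, so overlapping and antisense genes cannot be told apart. SREBP1 and LXR peaks after GW3965 were called with HOMER findPeaks, 1 list each, per the file headers, which give a normalised tag count (a signal scaled by the authors). Only peak positions were used. The LXR sample is titled as GW3965-treated while its treatment label reads as a control, and its header names an input from KLA-treated cells. It was used under its title.

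Reads were recovered as RPKM × transcript length × library total. In each library 99.97% of values above 0 came out whole within 0.01 read. The transcript of highest mean RPKM stood for each symbol, with the filters given in the report. Symbols turned into dates (17) were not named. Log2 ratios used a pseudocount of 1 RPKM and folds are plain RPKM ratios with 95% Clopper-Pearson intervals. PCR reads carry no molecular identifiers, so intervals and floors cover counting error only. With 1 library a side there was no test across replicates. The calculation was checked on simulated data. Python 3.11.15, numpy 2.4.6, pandas 2.3.3 and scipy 1.17.1 were used.

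The comparison, its 32 gene lists and the rules were chosen with earlier results of these data known. Genes were named by rule. Ranks were taken among genes with at least 20 reads over both libraries, at least 2-fold apart and with an interval that excludes 1. These gave the 15 highest and 15 lowest log2 ratios and the 6 largest gains and 6 largest losses of RPKM. Whatever their reads or fold, 2 genes at each end and the 2 most abundant of each list, and 8 regulators, were also named. Other genes named in a list were chosen after their values were seen. Some genes that the rule names are not reported here.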

Additional observations from a re-analysis of the deposited data

How the results depend on the processing

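The counts of called genes depend on the scale. With a pseudocount of 0.1 RPKM, 1016 genes were higher and 562 lower at 12 h, and with 3 RPKM 184 and 111. At 1.5-fold there were 1728 and 886, and at 3-fold 76 and 33. Relative to genes of like transcript length, an alternative chosen after seeing the data, 266 were higher and 366 lower, so that 42.1% of called genes were higher in place of 65.0%. With rescaling by the median of ratios 48.0% were higher (324 and 351) and the median of all genes was −0.006, and by the upper quartile 58.8%. Of 247 alternative medians of 31 lists, 15 differed in sign from the value reported, all in 6 lists with medians within 0.07 of 0, among them MHC class II (−0.14 relative to genes of like length). With a filter of 5 RPKM the ER stress list stood at 0.04 and the fibroblast list at −0.14. All 41 leading genes kept their direction in 246 comparisons, and 2, AW112010 (0.87) and Prdx5 (0.88), were under 2-fold relative to genes of like length. No paired analysis was possible because each time has 1 library, and no replicate could be left out for the same reason. Depth limits genes of few reads: 118 tested genes had no read at 12 h and 142 none at 6 h.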

Other observations

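Several gene families outside the lists lay on one side. They were chosen after their values were seen, so their counts are a description. Of 9 Ms4a genes tested, a family of membrane proteins with 4 spans, 4 passed the threshold, each higher at 12 h, with Ms4a4c at 552 RPKM at 12 h, against 173 RPKM at 6 h and Ms4a7 at 199.5 RPKM at 12 h against 94.0 at 6 h. Of 5 Ly6 genes, which encode small anchored surface proteins with close copies, 4 were higher, Ly6e with 653 RPKM at 12 h against 278 at 6 h and Ly6a with 19.3 RPKM at 12 h against 7.06 at 6 h among them. Of 4 sialic acid receptor genes, 3 were higher: Siglece, given above, Siglec1 (18.1 RPKM at 12 h against 7.06 at 6 h) and Cd33 (32.4 RPKM at 12 h against 14.7 at 6 h).

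Of 20 heat shock genes, 6 were higher at 12 h and none lower. The mitochondrial chaperonin pair Hspe1 and Hspd1 had 36.2 RPKM at 12 h against 11.5 at 6 h and 16.0 RPKM at 12 h against 7.23 at 6 h, Hspa8, the constitutive chaperone, 137 RPKM at 12 h against 57.7 at 6 h, and Hsph1 17.9 RPKM at 12 h against 5.82 at 6 h. Of 77 mitochondrial ribosomal protein genes, 6 were higher (7.79%) and 1 lower (1.30%), against 4.43% and 2.39% of all genes. Their median length was 1050 bases, and of the shortest 2597 genes (220 to 1658 bases) 230 were higher and 69 lower. The list median was 0.32 relative to all genes and 0.15 relative to genes of like length.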
